A study of Mus musculus with 5 samples.

Results

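Fibroblasts that carried Col6a5 transcripts, which encode the alpha-5 chain of collagen VI, were examined in ventral mouse skin. A fibroblast was a cell barcode with at least 1% of its UMIs (unique molecular identifiers, 1 per captured transcript) from the 4 genes Col1a1, Col1a2, Col3a1 and Dcn, and with no UMI of the leukocyte gene Ptprc. A fibroblast with at least 1 Col6a5 UMI was called Col6a5-positive, and 848 of 5545 fibroblasts were, out of 10611 barcodes kept and 11084 in all. Of these, 823 lay in skin with an Ikkb deletion and 25 in wild-type skin. The reference set was the 1017 fibroblasts of the same Ikkb-deleted libraries in which no Col6a5 UMI was found, called Col6a5-zero. The cells were thus chosen by their Col6a5 UMIs and the class by the 4 fibroblast genes and Ptprc, so the values of these genes are a description and carry no test.

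The skin came from C57BL/6J mice at postnatal day 28 and was profiled by single-cell RNA sequencing. There were 2 wild-type libraries (WT) and 3 libraries from Prx1Cre+Ikkbf/f animals (Ikkb_cKO), and each library pooled the cells of 2 mice. The sort removed debris, aggregates and DAPI-positive dead cells and did not select fibroblasts. In Ikkb_cKO animals Cre recombinase is driven by a Prx1 (Prrx1) enhancer, which acts in limb and part of the trunk mesenchyme, so deletion is limited to cells of that origin. Whether the WT animals carried Cre or floxed alleles is not given in the sources used here.

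Collagen VI is a microfibrillar collagen that surrounds cells and binds other matrix proteins. Its classical form joins alpha-1 and alpha-2 chains with alpha-3, and the alpha-4, alpha-5 and alpha-6 chains are related to alpha-3. Ikkb (Ikbkb) encodes IKK-beta, the kinase that marks the inhibitor of NF-kB for breakdown and so frees NF-kB to enter the nucleus. Fibroblasts of the skin build the matrix and also secrete chemokines, many of which are NF-kB targets.

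Col6a5 lies on the minus strand of chromosome 9 (GRCm38, 105856078 to 105960643), between Col6a6 and Col6a4 on the same strand. The gap to Col6a6 is 27.9 kb and the gap to Col6a4 is 28.8 kb. The 250 bases upstream of the RefSeq start of these 3 neighbours are shown because they lie side by side in the genome, and that of Car4, the gene of a membrane carbonic anhydrase, because it was among the genes highest in Col6a5-positive over Col6a5-zero cells. Sequences are from RefSeq on GRCm38.p6, 5′ to 3′ on the strand of the gene. They are given in lower case, and no part is marked.
Col6a5: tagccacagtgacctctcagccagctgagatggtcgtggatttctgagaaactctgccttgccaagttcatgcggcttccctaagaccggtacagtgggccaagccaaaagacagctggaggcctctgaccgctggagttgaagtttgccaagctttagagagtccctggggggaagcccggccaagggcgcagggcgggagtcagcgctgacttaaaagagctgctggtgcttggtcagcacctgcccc
Col6a6: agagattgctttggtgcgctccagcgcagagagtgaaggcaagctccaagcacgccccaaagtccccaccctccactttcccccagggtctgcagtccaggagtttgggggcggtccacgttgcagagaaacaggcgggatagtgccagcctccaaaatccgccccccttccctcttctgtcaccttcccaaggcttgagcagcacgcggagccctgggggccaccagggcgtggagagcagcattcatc
Col6a4: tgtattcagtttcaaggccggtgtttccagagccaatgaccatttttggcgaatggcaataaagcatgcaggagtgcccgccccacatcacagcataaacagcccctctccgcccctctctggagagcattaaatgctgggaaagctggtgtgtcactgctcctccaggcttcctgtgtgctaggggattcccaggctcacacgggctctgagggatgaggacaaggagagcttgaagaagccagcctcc
Car4: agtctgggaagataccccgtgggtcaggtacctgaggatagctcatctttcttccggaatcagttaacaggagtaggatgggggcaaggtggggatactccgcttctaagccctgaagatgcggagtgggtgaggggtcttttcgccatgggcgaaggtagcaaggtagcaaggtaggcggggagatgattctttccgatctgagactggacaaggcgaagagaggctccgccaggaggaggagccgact
The windows are chr9:105960644-105960893 for Col6a5, chr9:105828086-105828335 for Col6a6 and chr9:106096692-106096941 for Col6a4, all on the minus strand, and chr11:84957504-84957753 on the plus strand for Car4. Their GC content was 58.8%, 62.4%, 55.2% and 56.4%, against a median of 52.4% (quartiles 45.2% and 61.2%) over 32851 RefSeq windows of this length.

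Col6a5-positive cells made up most fibroblasts in 2 of the 3 Ikkb_cKO libraries and few in WT. The share was 65.7% (337 of 513, exact 95% binomial interval 61.4 to 69.8) in Ikkb_cKO library 1, 63.0% (294 of 467, 58.4 to 67.3) in library 2 and 22.3% (192 of 860, 19.6 to 25.3) in library 3. In WT it was 0.782% (14 of 1790, 0.428 to 1.31) and 0.574% (11 of 1915, 0.287 to 1.03). Library 3 thus stood apart from the other Ikkb_cKO libraries, and every Ikkb_cKO library stood above WT. Fibroblasts of 1000 or more UMIs were also thinned to 1000 UMIs each, and shallower ones were left out. The shares were then 65.2%, 62.3% and 18.0% of 371, 361 and 726 cells in Ikkb_cKO. In WT they were 0.235% and 0.219% of 1704 and 1830 cells. These intervals cover counting error only.

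The background was read from cells that should lack the transcript. Among Ptprc-positive cells 2.44%, 1.32% and 0.253% had a Col6a5 UMI in Ikkb_cKO libraries 1 to 3, at median depths of 2186.5, 2439 and 2963 UMIs. In WT 0 of 476 and 0 of 527 did, at median depths of 3353 and 3784 UMIs, which allows shares of up to 0.630% and 0.569%. Among WT cells without Ptprc and below the fibroblast threshold, 0 of 822 and 3 of 810 (0.370%) did, at 1994.5 and 2176 UMIs. The WT Col6a5-zero fibroblasts were deeper than these cells, at 4817.5 and 5269.5 UMIs. Each WT fibroblast share lay above both values of its own library, and its interval included the limit from the Ptprc-positive cells. Of all Col6a5 UMIs in kept Ikkb_cKO cells, 96.3%, 97.0% and 96.8% lay in the Col6a5-positive fibroblasts.

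**Figure D1:**
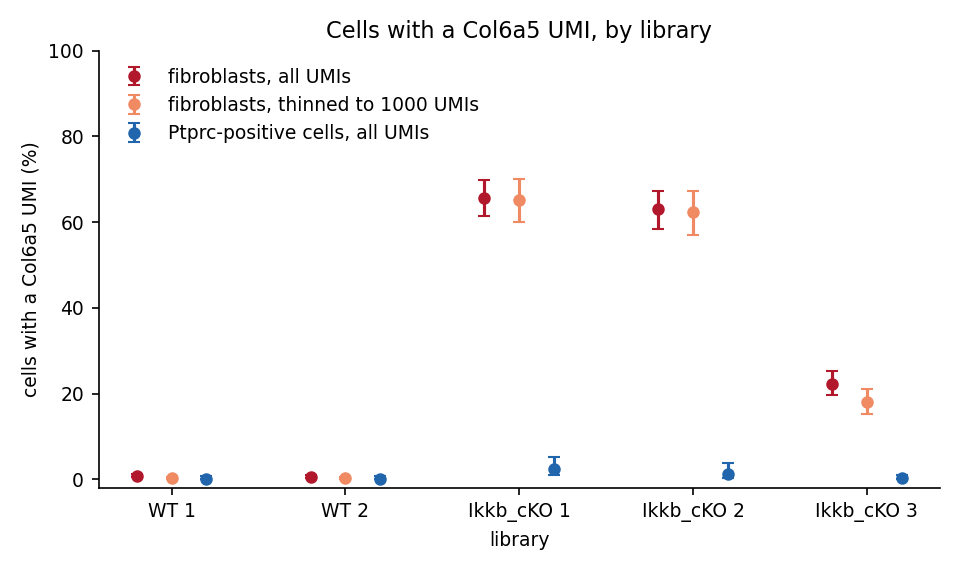
Percent of cells with at least 1 Col6a5 UMI in each library (points, with exact 95% binomial intervals as bars). Shown are fibroblasts at full depth, fibroblasts of 1000 or more UMIs thinned to 1000, and Ptprc-positive cells. Ikkb_cKO libraries 1 and 2 sit at 65.7% and 63.0% at full depth, library 3 at 22.3%, and the WT libraries under 1%.

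Col6a5-positive cells differed in how much of the transcript they held. The median was 3, 4 and 2 UMIs a cell in Ikkb_cKO libraries 1 to 3, with highest values of 43, 37 and 19. A single UMI was found in 22.8%, 19.7% and 30.7% of them, and 5 or more in 35.6%, 45.6% and 27.1%. Summed over cells, Col6a5 stood at 2275, 2300 and 1341 CPM (the gene's UMIs per 1000000 UMIs of the cell set). All 14 positive cells of WT library 1 had 1 UMI, and the highest in WT library 2 had 5.

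Depth bears on who counts as positive. The median UMI count of Col6a5-positive cells was 1639, 2030.5 and 2501 in Ikkb_cKO libraries 1 to 3, against 1152.5, 1441 and 2435 in Col6a5-zero cells. Of positive cells with 1000 or more UMIs (272, 250 and 175), 89.0%, 90.0% and 74.9% kept a Col6a5 UMI when thinned to 1000. A carrier at that depth could thus be counted as Col6a5-zero. The mitochondrial share was alike, with medians of 3.49%, 3.17% and 3.14% in positive and 3.46%, 3.29% and 3.51% in zero cells. Just inside the fibroblast threshold, at 1 to 1.5% of UMIs from the 4 genes, 24 of 31, 13 of 23 and 9 of 25 Ikkb_cKO cells had a Col6a5 UMI. Just outside it, at 0.5 to 1%, 2 of 5, 10 of 18 and 2 of 11 did.

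The positive cells carried fibroblast transcripts, at lower levels of some. All 11 markers of a general fibroblast list had UMIs in all 3 libraries. Dcn, the gene of decorin, stood at 4503, 4467 and 7747 CPM in Col6a5-positive cells and at 9100, 9605 and 10863 CPM in Col6a5-zero cells, with no overlap. Col3a1 stood at 11631, 12283 and 15400 CPM against 10742, 11699 and 17680 CPM, and overlapped. A list of 16 myeloid markers summed to 108, 174 and 161 CPM in positive and 250.5, 61.8 and 163 CPM in zero cells of libraries 1 to 3. Positive cells were thus higher in library 2. Markers at 0 numbered 4, 5 and 3 in positive and 7, 8 and 0 in zero cells. Zero cells of libraries 1 and 2 held fewer UMIs in sum (303402 and 339703 against 667786 and 714311), where a value of 0 is likelier. A list of 12 keratinocyte markers summed to 31.4, 46.2 and 123 CPM in positive and 29.7, 91.3 and 330.5 CPM in zero cells. At 0 were 8, 5 and 4 of them in positive and 10, 10 and 0 in zero cells. Krt1 and Krtdap were at 0 in positive cells of every library and in zero cells of libraries 1 and 2. The 4 erythroid transcripts listed summed to 195 CPM in positive cells of library 2 and to 0 in its zero cells. A list of 10 endothelial markers summed to 168 to 225 CPM and 115 to 150.1 CPM, so positive cells were higher. The same 7, among them Pecam1, Cdh5 and Cldn5, were at 0 in positive cells of every library. In zero cells 7, 6 and 3 of the 10 were at 0. Most of the sum was Ramp2, at 144, 155 and 137 CPM in positive and 105, 100 and 105 CPM in zero cells. Flt1 stood at 15.0, 14.0 and 86.1 CPM against 6.59, 32.4 and 19.8 CPM. Neither Ramp2 nor Flt1 passed the test described below.

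The rest of the transcriptome was compared between Col6a5-positive and Col6a5-zero fibroblasts of the same 3 Ikkb_cKO libraries. UMIs were summed per library and set, and edgeR's quasi-likelihood test was run with the library as a block, so that the 3 libraries and not the cells were the replicates. Of 6259 genes tested, 204 were higher and 118 lower in Col6a5-positive cells at an adjusted p under 0.05, which is 5.14% of the genes in all, 3.26% higher and 1.89% lower. Each list count below is to be read beside these shares. Of the calls, 155 upward and 83 downward were over 2-fold, and 1045 genes had an unadjusted p under 0.05. The median log2 difference over all genes tested was -0.01. For 18.0% of genes tested the 3 positive values did not overlap the 3 zero values.

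The libraries did not weigh equally in this test. Ikkb_cKO libraries 1 and 2 were alike, with a chi-square per degree of freedom of 1.45 between their positive cells, against 4.98 and 5.85 with library 3. Nothing in the labels says whether they share animals, and p-values measure the spread between these libraries only. With libraries 1 and 2 summed to a single replicate, an alternative chosen after seeing the data, 33 genes were higher and 15 lower. Without library 1 the counts were 98 and 58, without library 2 they were 68 and 33, and without library 3 they were 473 and 432. Of 68 called genes picked by the naming rule, 20 passed in every alternative in which they could be tested, and those are Col6a2, Col6a6, Fn1, Postn, Car4, Duox2, Tdo2, Aldh1a3, Ptgs2, Procr, Serpinb2, Slc7a8, Sel1l3, Susd4, Map3k7cl, Cxcl2, Ccl11, F2r, Thbs4 and Angptl1. Col6a2 and Car4 among them had been named as markers with results of these data known. Car4, Duox2, Tdo2, Sel1l3, Susd4 and Map3k7cl were on a list of genes strongly raised in earlier results of these data. Their passing adds no independent support. Without the library as a block 32 of the 68 missed the threshold, among them Mfap4 (adjusted p = 0.321), C3 (0.304) and Hspa1a (0.659).

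**Figure D2:**
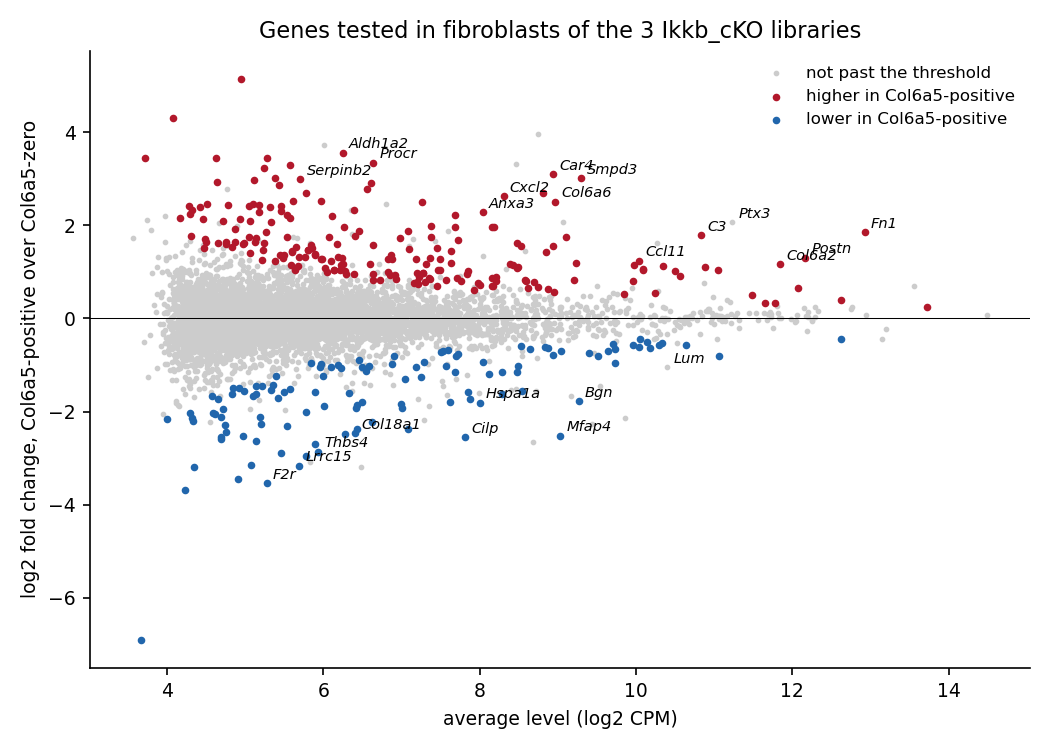
Log2 fold change of Col6a5-positive over Col6a5-zero fibroblasts (vertical axis) against average level in log2 CPM (horizontal axis) for the 6259 genes tested, with 204 genes higher in red and 118 lower in blue at an adjusted p under 0.05. Fn1 stands out among abundant genes, and the lowest point, at -6.90, is Ptger3, which had 0 UMIs in the positive cells and whose fitted value is no bound.

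Among the other chains of collagen VI, Col6a6 and Col6a1 rose and Col6a3 did not pass the test. Col6a6, the neighbour of Col6a5, stood at 188, 194 and 83.6 CPM in Col6a5-zero cells of Ikkb_cKO libraries 1 to 3 and at 921, 990 and 559 CPM in Col6a5-positive cells. The sets did not overlap, with a 5.70-fold difference (log2 2.51, SE 0.15, adjusted p = 2.06e-05). Col6a1, the alpha-1 chain, rose from 1470, 1345 and 1393 CPM to 2907, 3146 and 2372 CPM, or log2 1.03 (SE 0.10, adjusted p = 0.000369), again with no overlap. With libraries 1 and 2 summed it missed the threshold (adjusted p = 0.0539). Col6a3, the alpha-3 chain, stood at 1744, 1289 and 1274 CPM in zero and at 1030, 995 and 1275 CPM in positive cells. These values overlapped and the log2 difference of -0.33 (SE 0.14, adjusted p = 0.264) did not pass. Col6a4, on the far side of Col6a5, had 10 UMIs in positive and 2 in zero cells of Ikkb_cKO and was too low to test. Of the 3 tested chains other than Col6a5 and Col6a2, which is treated next, 2 were higher and 0 lower.

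Col6a2, the alpha-2 chain, and 3 further genes, Smpd3, Ptx3 and Car4, had been named as markers of these cells with results of these data known, so their differences are a description, also where they enter a count or a plot. Col6a2 stood at 2548, 2329 and 1979 CPM in zero and at 5286, 6118 and 3764 CPM in positive cells, a log2 difference of 1.17 (SE 0.09). Smpd3, the gene of a neutral sphingomyelinase that releases ceramide, stood at 221, 203 and 52.4 CPM against 1167, 1373 and 690.5 CPM (3.01, SE 0.26). Car4 stood at 181, 121 and 45.0 CPM against 958, 997 and 575 CPM (3.10, SE 0.24). In each of these 3 genes the lowest positive library was above the highest zero library, and library 3 was lowest in both sets. Ptx3, the gene of the secreted pattern-recognition protein pentraxin 3, stood at 1467, 1275 and 404 CPM against 3880, 3944 and 3352 CPM (2.06, SE 0.46). Its sets did not overlap either, as for 18.0% of all genes tested, and its log2 ratio of positive to zero cells was largest in library 3. Unlike the other 3 genes, Ptx3 did not pass the test (adjusted p = 0.194).

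The markers were also compared as shares of cells, in cells of 1000 or more UMIs thinned to 1000 UMIs each. A Smpd3 UMI was found in 58.1%, 66.0% and 38.9% of Col6a5-positive cells of Ikkb_cKO libraries 1 to 3 and in 12.1%, 9.01% and 4.17% of Col6a5-zero cells. Car4 was found in 50%, 52.4% and 32.0% against 9.09%, 9.91% and 4.36%, and Col6a6 in 53.3%, 60.0% and 40.0% against 11.1%, 14.4% and 7.80%. At full depth Smpd3 was found in 66.8%, 74.8% and 50% of positive cells, Car4 in 64.4%, 70.1% and 51.6%, and Col6a6 in 66.2%, 76.2% and 62.5%. Ptprc-positive cells of the same libraries had a Smpd3 UMI in 1.22%, 2.20% and 0.127% of cells. Many positive cells thus had no UMI of a given marker at this depth.

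**Figure D3:**
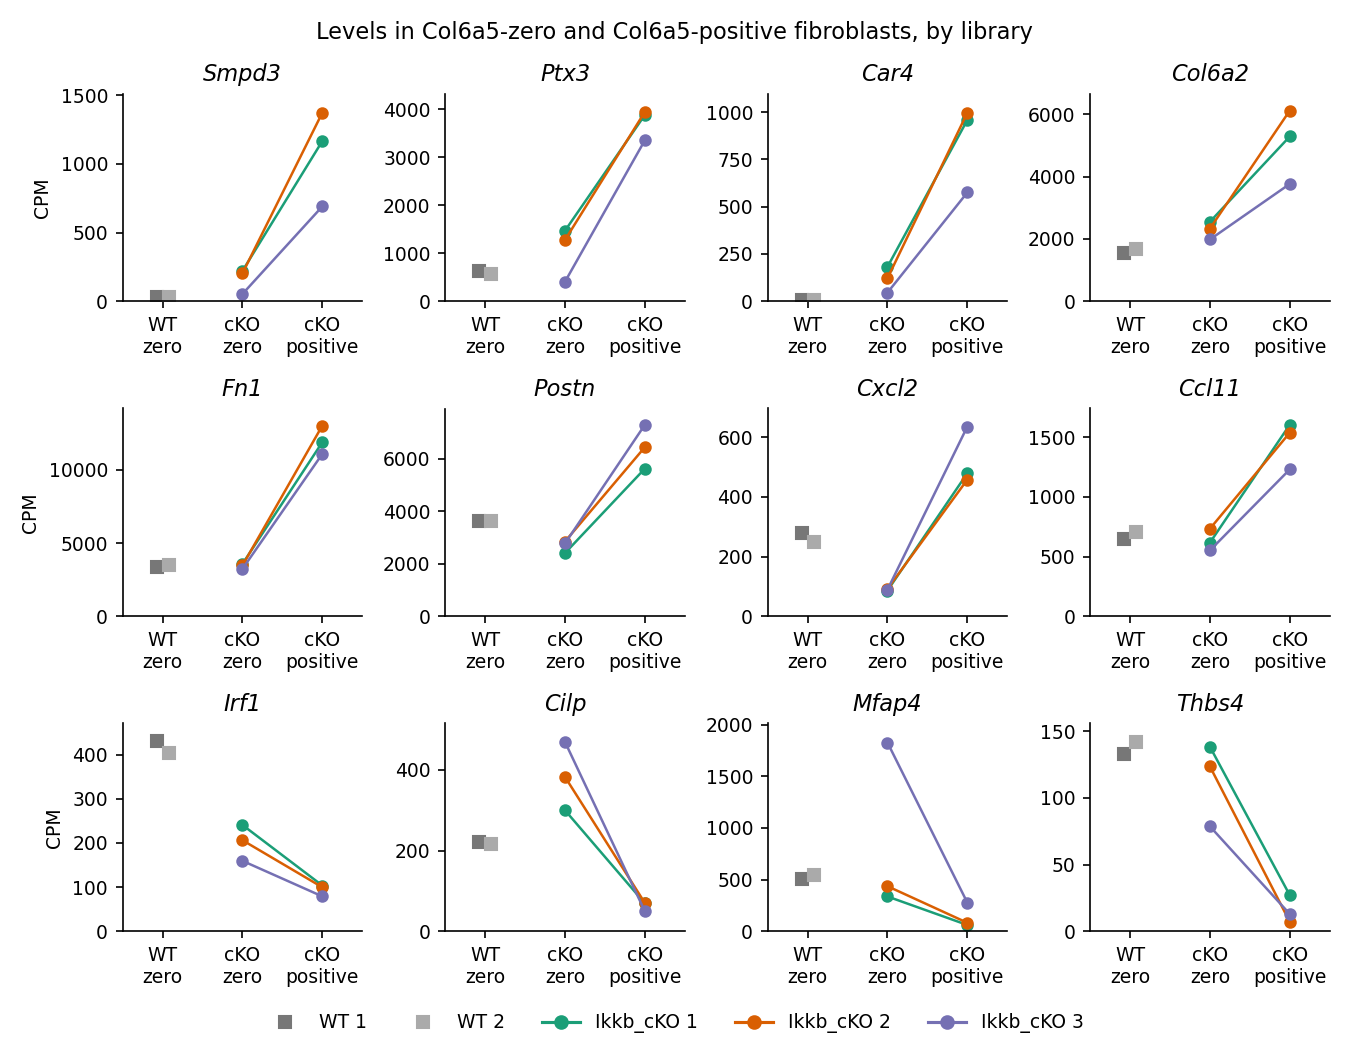
Level in CPM (vertical axes, each from 0) of 12 genes in Col6a5-zero fibroblasts of WT (grey squares) and in Col6a5-zero and Col6a5-positive fibroblasts of each Ikkb_cKO library (circles joined by a line per library). Positive values lie above zero values in every library for the first 8 genes and below them for Irf1, Cilp, Mfap4 and Thbs4.

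Genes of the extracellular matrix were called in both directions. Fn1, the gene of fibronectin, rose from 3576, 3468 and 3237 CPM in Col6a5-zero cells to 11896, 13031 and 11094 CPM in Col6a5-positive cells, with the smallest SE among the genes described (log2 1.85, SE 0.06, adjusted p = 3.79e-07). The zero values of Fn1 were close to the 3363 and 3528 CPM of WT Col6a5-zero fibroblasts. Postn, the gene of periostin, rose from 2403, 2844 and 2770 CPM to 5622, 6440 and 7291 CPM (1.31, SE 0.08, adjusted p = 1.66e-05). Over all genes tested 3.26% were higher and 1.89% lower. Of 26 matrix glycoproteins and proteoglycans tested, 4 were higher and 8 lower, with a median log2 difference of -0.56 against -0.01 over all genes. The other higher ones were Ogn, which encodes osteoglycin, and Emilin2, of elastic fibres.

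The 8 lower ones were Mfap4, Cilp, Bgn, Thbs4, Aspn, Tnxb, Spon2 and Fbln2. Cilp, which encodes a matrix protein of cartilage intermediate layer, fell from 300, 383 and 469.5 CPM to 68.9, 70.0 and 49.5 CPM (-2.56, SE 0.22, adjusted p = 0.000277). With positivity set at 2 or more Col6a5 UMIs it missed the threshold (adjusted p = 0.0598). Thbs4, the gene of thrombospondin-4, fell from 138, 124 and 78.7 CPM to 27.0, 7.0 and 12.8 CPM (-2.86, SE 0.34, adjusted p = 0.00107). Mfap4, which encodes a microfibril-associated glycoprotein, stood at 336, 436 and 1828 CPM in zero and 59.9, 81.2 and 277 CPM in positive cells (-2.52, SE 0.15, adjusted p = 1.66e-05), with no overlap. Bgn, the gene of biglycan, stood at 570, 618 and 1567 CPM against 168, 123 and 582 CPM (-1.77, SE 0.18, adjusted p = 0.000564). Its sets overlapped because library 3 was highest in both, although positive cells were lower within every library. Among 11 other collagens tested, Col5a3 was higher (1.06, SE 0.13) and Col18a1 lower (-2.47, SE 0.31), and 9 did not pass. Both missed the threshold with libraries 1 and 2 summed (adjusted p = 0.0774 for Col5a3 and 0.0624 for Col18a1).

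The 12 largest rises among genes of moderate or higher level were Aldh1a2, Sel1l3, Procr, Slc7a8, Adora2b, Car4, Susd4, Smpd3, Serpinb2, Lrrc8b, Duox2 and Arl4c. Aldh1a2, Sel1l3, Susd4 and Duox2, like the markers Car4 and Smpd3, were already on the list of genes strongly raised in earlier results of these data. Aldh1a2, a retinaldehyde dehydrogenase that makes retinoic acid, rose from 23.1, 17.7 and 5.44 CPM to 135, 120 and 132 CPM (3.56, SE 0.40, adjusted p = 0.00143). With libraries 1 and 2 summed its adjusted p was 0.0511. Procr, the endothelial protein C receptor, rose from 33.0, 17.7 and 9.40 CPM to 153, 216 and 137 CPM (3.35, SE 0.32, adjusted p = 0.000369). WT Col6a5-zero cells stood at 61.3 and 56.1 CPM, between these sets. Duox2, a hydrogen peroxide-producing oxidase, rose from 33.0, 26.5 and 9.90 CPM to 192, 213 and 82.4 CPM (2.91, SE 0.24, adjusted p = 0.000189), and was under 1 CPM in WT.

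Others of the 12 were at lower levels. Slc7a8, an amino acid transporter, stood at 62.9, 58.8 and 115 CPM in positive cells against 16.5, 5.89 and 8.41 CPM. Adora2b, the A2B adenosine receptor, stood at 52.4, 58.8 and 75.1 CPM against 16.5, 5.89 and 4.95 CPM, and Serpinb2, the plasminogen activator inhibitor PAI-2, at 56.9, 65.8 and 134 CPM against 16.5, 8.83 and 12.9 CPM. Susd4, a complement regulator, stood at 79.4, 92.4 and 31.1 CPM against 13.2, 11.8 and 2.97 CPM. In Slc7a8, Adora2b and Serpinb2 library 3 was the highest of the positive sets. In these 4 genes no positive value overlapped a zero value, as for 18.0% of all genes tested. These genes were ranked for a large rise in 1 direction in all libraries, which favours such a gap, so it adds no support. The zero values of Slc7a8, Adora2b, Serpinb2 and Susd4 rest on 24, 17, 34 and 14 UMIs over the 3 Ikkb_cKO libraries. Adora2b missed the threshold with libraries 1 and 2 summed (adjusted p = 0.0539). Ankrd1, singled out after its values were seen and below the level set for ranking, had the largest fitted rise of all (5.15, SE 0.64, adjusted p = 0.00143).

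Small-molecule mediators changed in both directions. Of 10 genes of retinoic acid synthesis and response tested, Aldh1a2 and Aldh1a3 were higher and Rbp4, a carrier of retinol, was lower. For this list and the next, the shares over all genes tested were 3.26% higher and 1.89% lower. Rbp4 (-1.54, SE 0.31, adjusted p = 0.0185) missed the threshold in 6 of 13 alternatives, among them without library 1 (adjusted p = 0.155), without library 2 (0.194) and with DESeq2 (0.104). Aldh1a3, a further retinaldehyde dehydrogenase, rose from 9.89, 26.5 and 6.43 CPM to 86.9, 104 and 40.3 CPM (2.51, SE 0.31, adjusted p = 0.00143). Of 13 tested genes of lipid mediators and sphingolipids other than the marker Smpd3, 2 were higher and 2 lower. Ptgs2, the inducible cyclooxygenase COX-2, rose from 217.5, 188 and 123 CPM to 557, 636 and 377 CPM (1.62, SE 0.15, adjusted p = 0.000339), and Ptgis, the prostacyclin synthase, was also higher. Ptger3, a receptor for prostaglandin E, had 0 UMIs in positive cells and 51 in zero cells, which is at least 12.3-fold lower with a floor of 3 counts over the group. Enpp2, the gene of autotaxin, was lower (-2.48, SE 0.34, adjusted p = 0.00237). With libraries 1 and 2 summed, Ptger3 (adjusted p = 0.0959) and Enpp2 (adjusted p = 0.0813) missed the threshold, and without library 2 Ptger3 did too (adjusted p = 0.100). Ltc4s, the leukotriene C4 synthase, stood at 904, 1134 and 242 CPM against 129, 100.09 and 1.48 CPM, with a large difference that did not pass (3.96, SE 0.90, adjusted p = 0.203). Tdo2, which degrades tryptophan, rose from 26.4, 17.7 and 12.9 CPM to 115, 99.4 and 84.3 CPM (2.53, SE 0.26). Tdo2 was named only through a list of genes strongly raised in earlier results of these data, so its difference is a description.

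Chemokines rose in part. Of 11 tested, 3 were higher and 1 lower, where 3.26% of all genes tested were higher and 1.89% lower. Cxcl2, a neutrophil chemokine, rose from 85.7, 91.3 and 88.6 CPM to 479, 458 and 635.5 CPM (2.62, SE 0.17, adjusted p = 4.16e-05). WT Col6a5-zero cells stood at 279 and 247 CPM, above the Ikkb_cKO zero set and below the positive set. Ccl11, the eosinophil chemokine eotaxin, rose from 616, 733 and 551 CPM to 1605, 1539 and 1231 CPM (1.24, SE 0.11, adjusted p = 0.000277), while WT zero cells had 647 and 702 CPM. Ccl2, a monocyte chemokine, rose from 709, 589 and 1217 CPM to 1506.5, 1519 and 2141 CPM (1.13, SE 0.12, adjusted p = 0.000544), below the 2655 and 2679 CPM of WT zero cells. With libraries 1 and 2 summed its adjusted p was 0.0553. Cxcl1, another neutrophil chemokine, stood at 1503, 1655 and 2295 CPM against 725, 692 and 438 CPM but did not pass (1.62, SE 0.32, adjusted p = 0.102).

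Cxcl9, an interferon-induced T cell chemokine, was lower (-3.69, SE 0.66, adjusted p = 0.0117), at 1.5, 0 and 5.49 CPM against 39.6, 26.5 and 27.7 CPM. It missed the threshold without library 1 (adjusted p = 0.102) or library 2 (adjusted p = 0.0734). Of 31 interferon-response genes tested, 0 were higher and 6 lower, namely Irf1, Ifitm1, Ifitm2, Ifitm3, B2m and Cxcl9, with a list median of -0.65 against -0.01 over all genes. The shares over all genes tested were 3.26% higher and 1.89% lower. Irf1, a transcription factor of this response, fell from 241, 206 and 159 CPM to 103, 99.4 and 78.8 CPM (-1.05, SE 0.17, adjusted p = 0.00701), and both sets were below the 431 and 404.5 CPM of WT zero cells. Ifitm1, an antiviral membrane protein, fell from 23.1, 41.2 and 46.0 CPM to 2.99, 4.2 and 11 CPM (-2.55, SE 0.42, adjusted p = 0.00701). Irf1 missed the threshold without library 1 (adjusted p = 0.0894) or library 2 (adjusted p = 0.104), and Ifitm1 without library 2 (adjusted p = 0.0915). Ifitm2 missed it without library 1 (adjusted p = 0.170) or library 2 (adjusted p = 0.140).

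Genes of the NF-kB pathway itself passed the test at a share near that of all genes tested. Ikbkb, the targeted gene, stood at 13.5, 25.2 and 9.16 CPM in positive cells, at 23.1, 11.8 and 16.8 CPM in zero cells of Ikkb_cKO and at 14.9 and 18.8 CPM in WT zero cells, and all sets overlapped (-0.17, SE 0.47, adjusted p = 0.900 for positive over zero). The reads lie at the 3′ end of transcripts and the position of the floxed exons is not given in the sources used here, so this level is no check on the deletion. Of 18 pathway components tested, Nfkb1 was higher and 17 did not pass, where 5.14% of all genes tested were called. The list median was 0.15 against -0.01 over all genes, and missing the threshold does not show that a gene was unchanged. Nfkb1, the p50 precursor, stood at 186, 193 and 698 CPM against 125, 124 and 316 CPM (0.87, SE 0.17, adjusted p = 0.0189), and missed the threshold without library 1 (adjusted p = 0.0819) or library 2 (adjusted p = 0.124). Of 21 NF-kB target genes, Cxcl2, Ptgs2 and Ccl2 were higher and Icam1 was lower. Icam1, an adhesion molecule, stood at 47.9, 47.6 and 178 CPM against 155, 165 and 284.5 CPM (-1.25, SE 0.25, adjusted p = 0.0186). It missed the threshold without library 1 (adjusted p = 0.133) or library 2 (adjusted p = 0.187), and in cells of 1500 to 5000 UMIs (adjusted p = 0.318).

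Among 11 genes that respond to interleukins 4 and 13, Postn, Ccl11 and Cish were higher and 0 were lower. Over all genes tested 3.26% were higher and 1.89% lower. Cish, a feedback inhibitor of cytokine signalling, stood at 154, 129 and 172 CPM against 119, 73.6 and 65.8 CPM (0.94, SE 0.23, adjusted p = 0.0459), and missed the threshold without library 1 (adjusted p = 0.0698) or library 2 (adjusted p = 0.231). Il4ra, the shared receptor chain of both cytokines, did not pass (0.37, SE 0.20, adjusted p = 0.425). C3, the central complement component, stood at 3377, 3409 and 1423 CPM against 1305, 1139 and 289 CPM (1.79, SE 0.18, adjusted p = 0.00371). Lif, a cytokine of the interleukin-6 family, was higher (1.73, SE 0.35, adjusted p = 0.0185) and Bmp4, a bone morphogenetic protein, lower (-2.11, SE 0.40, adjusted p = 0.014). Without library 2 neither passed (adjusted p = 0.124 for Lif and 0.105 for Bmp4), and Lif also missed without library 1 (adjusted p = 0.0824).

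**Figure D4:**
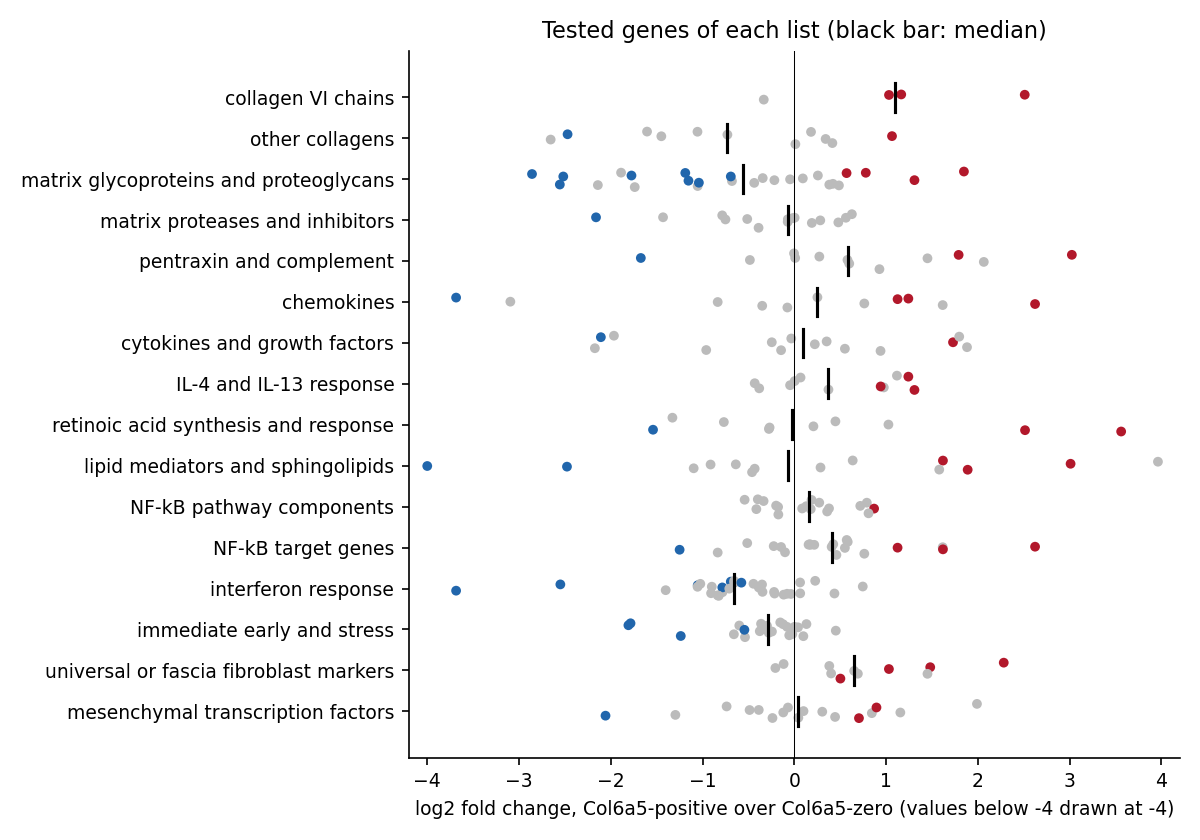
Log2 fold change of Col6a5-positive over Col6a5-zero fibroblasts (horizontal axis) for each tested gene of 16 lists (rows), in red or blue where the gene passed as higher or lower and in grey where it did not, with the list median as a black bar. Of the 31 interferon-response genes 0 were higher and 6 lower, and of the 26 matrix glycoproteins 4 were higher and 8 lower.

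Markers of fibroblast subtypes placed these cells unevenly. Of 11 tested markers of universal or fascia fibroblasts, 4 were higher and 0 lower, with a median of 0.65. The shares over all genes tested were 3.26% and 1.89%. Anxa3, an annexin, rose from 138, 112 and 39.1 CPM to 530, 473 and 249 CPM (2.28, SE 0.19, adjusted p = 0.000189), with WT zero cells at 248 and 258 CPM. Igfbp6, which binds insulin-like growth factors, stood at 1751, 1754 and 828 CPM against 916, 880 and 403 CPM (1.03, SE 0.10, adjusted p = 0.000369). WT zero cells, at 2490 and 2474 CPM, lay above every positive value. Dpp4, a peptidase that removes dipeptides from the ends of peptides, stood at 74.9, 96.6 and 60.4 CPM against 19.8, 41.2 and 23.3 CPM (1.48, SE 0.25, adjusted p = 0.00808). Clec3b, the gene of tetranectin, was higher by 0.50 (SE 0.08, adjusted p = 0.00403). The list of 12 summed to 10523, 11212 and 7777 CPM in positive and 6678, 7006 and 7140 CPM in zero cells of Ikkb_cKO, below the 12872 and 12554 CPM of WT zero cells. Pi16, the marker that most often names universal fibroblasts, did not pass (-0.21, SE 0.53, adjusted p = 0.901) and differed in direction between libraries, at 186, 181 and 126 CPM against 129, 127 and 373 CPM. Without library 1 or library 2 Clec3b (adjusted p = 0.102 and 0.114) and Dpp4 (adjusted p = 0.0568 and 0.0836) missed the threshold, and with both summed Igfbp6 did (adjusted p = 0.0539).

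Cilp and Thbs4, the 2 tested markers of tendon- and Cilp-type fibroblasts, were both lower. That list of 10 summed to 97.3, 79.8 and 86.1 CPM in positive and 458, 533 and 788 CPM in zero cells. Coch, the gene of cochlin, was listed at 0 UMIs in both sets of libraries 1 and 2, while in library 3 it stood at 1079 CPM in zero and 31.1 CPM in positive cells. Crabp1, a retinoic acid-binding protein of upper dermal fibroblasts, stood at 0, 85.4 and 286 CPM in zero and 0, 1.40 and 9.16 CPM in positive cells. The Col6a5-zero set of library 3 thus held cells that libraries 1 and 2 lacked or held less of, and the part of this mixture in the differences was not tested. Other members of these lists went the other way. Of 3 upper dermal markers tested, Postn was higher and Ntn1 lower. That list summed to 14503, 16218 and 14370 CPM in positive and 11236, 12690.5 and 15656 CPM in zero cells. Gpm6b of the Coch list was higher in positive cells of every library but did not pass (0.49, SE 0.16, adjusted p = 0.128). Of 7 tested reticular dermal markers other than Smpd3, 0 were higher, Tgfbi and Cdh11 were lower and 5 did not pass. Among those 5, Dlk1 was higher in positive cells of every library (1.62, SE 0.55, adjusted p = 0.225). With Smpd3 included, the median of the reticular list was 0.56, so its members went in both directions. Of 6 preadipocyte-like markers 0 were higher and Icam1 was lower. The preadipocyte-like list of 12 summed to 1559, 1131 and 2117 CPM in positive and 4693, 3385 and 1329.5 CPM in zero cells, so library 3 ran opposite to the others. Cdh11 missed the threshold without library 1 (adjusted p = 0.261) or library 2 (adjusted p = 0.224). Of 3 tested dermal papilla and sheath markers and 3 mural markers, 0 passed, and Acta2 and Tagln are in both lists.

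The 12 largest falls among genes of moderate or higher level were F2r, Lrrc15, Clec11a, Hmcn1, Itgbl1, Thbs4, Angptl1, Cldn10, Cilp, Mfap4, Enpp2 and Col18a1. F2r, the thrombin receptor PAR1, fell from 29.7, 35.3 and 98.0 CPM to 2.99, 1.40 and 9.16 CPM (-3.53, SE 0.40, adjusted p = 0.00078). Lrrc15, a membrane protein of matrix-producing fibroblasts, fell from 59.3, 58.9 and 121 CPM to 4.49, 1.40 and 22 CPM (-3.16, SE 0.41, adjusted p = 0.00192). Hmcn1, the gene of hemicentin-1, fell from 42.8, 67.7 and 134 CPM to 1.5, 5.6 and 25.6 CPM (-2.95, SE 0.37, adjusted p = 0.00155). In these 3 genes library 3 was highest in both sets. The sets did not overlap, which ranking by large falls in 1 direction favours. Without library 2 Cldn10 missed the threshold (adjusted p = 0.0836). With libraries 1 and 2 summed, Lrrc15 (adjusted p = 0.0563) and Hmcn1 (adjusted p = 0.0539) missed the threshold.

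Transcription factors were called in both directions and stress genes only downward. Of 17 mesenchymal transcription factors tested, Creb5 and Prrx1 were higher and Prrx2 was lower. For these and the stress genes, the shares over all genes tested were 3.26% higher and 1.89% lower. Creb5 missed the threshold without library 1 (adjusted p = 0.0994) or library 2 (adjusted p = 0.0951). Prrx1, whose enhancer drives the Cre, stood at 361, 354 and 320.5 CPM against 198, 212 and 239.5 CPM (0.70, SE 0.16, adjusted p = 0.032), and missed the threshold without library 1 (adjusted p = 0.281) or library 2 (adjusted p = 0.279). Its paralog Prrx2 stood at 4.49, 5.6 and 12.8 CPM against 26.4, 32.4 and 40.6 CPM (-2.06, SE 0.40, adjusted p = 0.0167), and missed it without library 1 (adjusted p = 0.0877) or library 2 (adjusted p = 0.134). Of 24 immediate early and stress genes 4 were lower, namely the heat-shock genes Hspa1a, Hspa1b, Hspa8 and Hsph1. Hspa1a stood at 21.0, 35 and 238 CPM against 85.7, 103 and 913 CPM (-1.81, SE 0.18, adjusted p = 0.000475), and library 3 was the highest in both sets. Hspa8 missed the threshold in 7 of 14 alternatives, among them without library 1 (adjusted p = 0.177) or library 2 (adjusted p = 0.249). Hsph1 missed it in 7 of 13, among them without library 1 (adjusted p = 0.119), library 2 (adjusted p = 0.109) or library 3 (adjusted p = 0.241). Of 3 cell-cycle genes tested 0 passed.

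Within the positive cells, levels were set out by Col6a5 UMI count, as a description over a set of genes chosen after their values were seen. Cells with a single Col6a5 UMI already differed from Col6a5-zero cells. Their Smpd3 stood at 956, 650 and 457 CPM, against 221, 203 and 52.4 CPM in zero cells and 1282, 1409 and 839 CPM in cells with 5 or more. Cilp ran the other way, from 300, 383 and 470 CPM in zero cells to 126, 104 and 160 CPM with 1 UMI and 32.4, 57.7 and 14.0 CPM with 5 or more. The median depth of cells with 1 UMI was 1064, 1113 and 1705 UMIs, below that of zero cells in every library. Cells with 5 or more were the deepest, at 2529, 2964.5 and 3844.5 UMIs.

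Not every gene was graded. Cxcl2 stood at 319, 545 and 320 CPM in cells with 1 UMI and at 563, 450.5 and 676 CPM in those with 5 or more, so that library 2 ran opposite to the others. Il6, the gene of interleukin-6, was at 1063, 847 and 739 CPM with 1 UMI and 887, 621 and 1515 CPM with 5 or more, and overlapped. Its difference between positive and zero cells did not pass (0.55, SE 0.39, adjusted p = 0.613).

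**Figure D5:**
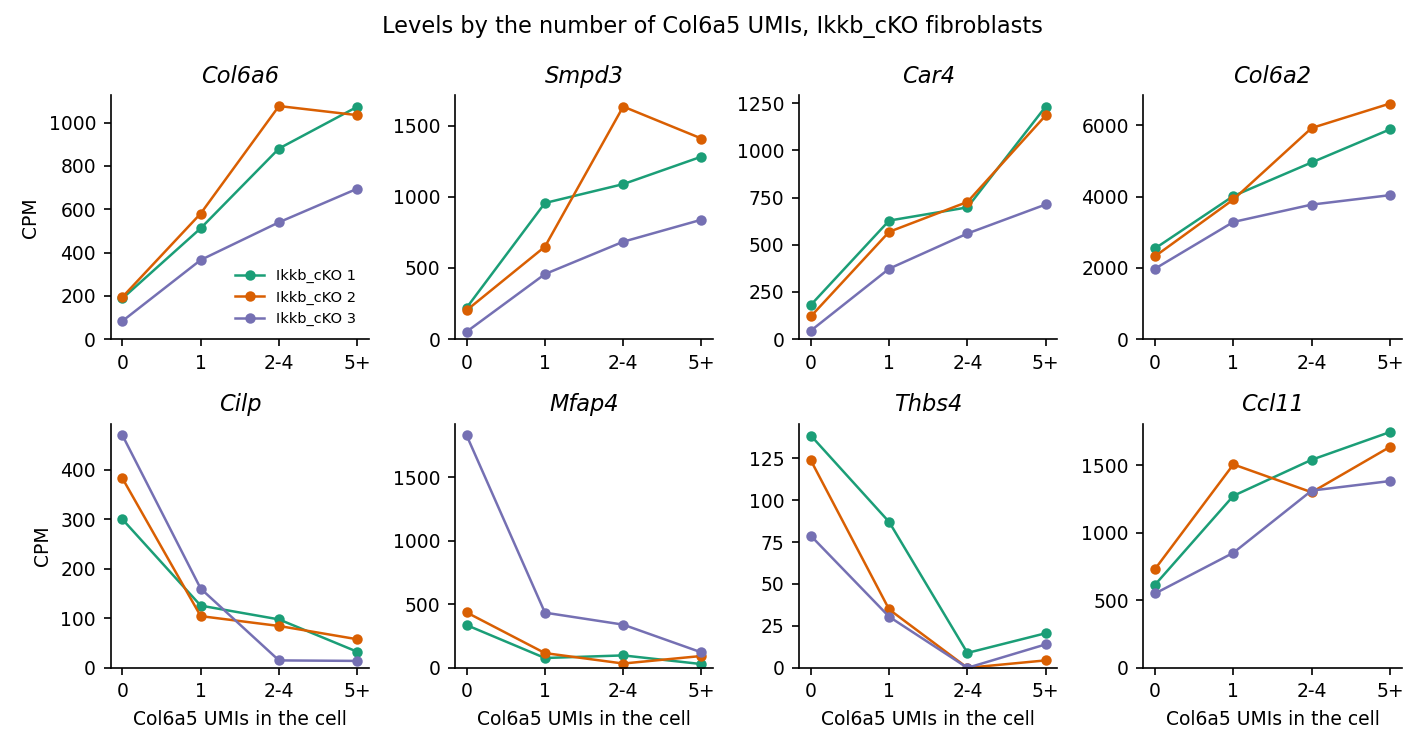
Level in CPM (vertical axes, each from 0) of 8 genes in Ikkb_cKO fibroblasts with 0, 1, 2 to 4, and 5 or more Col6a5 UMIs (horizontal axes), 1 line per library. Car4 and Col6a2 are higher in every successive class of every library, whereas Cilp is lowest at 5 or more UMIs.

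The 25 positive cells of WT skin were too few for a test by library and are described as 1 sum of 119358 UMIs, with exact 95% Poisson intervals that cover counting error only. Smpd3 stood at 369 CPM (268 to 495) in them against 27.6 CPM in WT Col6a5-zero cells, and Col6a6 at 117 CPM (64.1 to 197) against 26.6 CPM. Daglb, a diacylglycerol lipase singled out after its values were seen, stood at 243 CPM (163 to 349) against 26.5 CPM. Cxcl2 stood at 779 CPM (629 to 955) against 262 CPM, Cilp at 58.6 CPM (23.6 to 121) against 219 CPM and Mfap4 at 109 CPM (58.0 to 186) against 528 CPM. These genes are part of a set chosen after their values were seen. In these 6 the interval left out the WT zero level, on the same side as in Ikkb_cKO. Other genes were nearer to it: Col6a2 was at 1718 CPM (1490 to 1969) against 1612 CPM, and Aldh1a2 had 0 UMIs, with a floor of 25.1 CPM at 3 counts.

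To place the zero set, Col6a5-zero fibroblasts of Ikkb_cKO were compared with those of WT. This comparison shares its Ikkb_cKO sums with the one above, so no overlap between them is given. Of 10021 genes tested, 1663 were higher and 1834 lower in Ikkb_cKO by edgeR's quasi-likelihood test, 34.9% in all, 16.6% higher and 18.3% lower. For 51.8% of the genes tested the genotypes did not overlap. The counts rested on having 2 WT libraries: they fell to 46 and 111 without WT library 1 and to 42 and 127 without WT library 2. Smpd3 stood at 27.5 and 27.6 CPM in WT zero cells, Car4 at 4.96 and 4.34 CPM, Col6a6 at 25.1 and 27.9 CPM and Aldh1a2 at 1.17 and 0.510 CPM. All 4 were higher in every Ikkb_cKO zero set, and higher again in every positive set. Among the Ikkb_cKO zero sets all 4 were lowest in library 3, which also had the lowest share of Col6a5-positive fibroblasts (22.3%). Shallow carriers can be counted as Col6a5-zero, and their part in the zero levels was not tested. Procr, Cxcl2, Ccl2 and Postn were instead lower in every Ikkb_cKO zero set than in WT and higher in every positive set than in the zero sets, and of these only Ccl2 stayed below WT in the positive cells.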

How the data were processed

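Single-cell RNA sequencing (10x 3' v2 chemistry) was deposited by the authors as raw UMI counts, 1 matrix of genes by barcodes for each of 5 libraries. Per the submitters' processing notes the authors used Cell Ranger 1.3.0 and mm10, whereas software version 3.0.1 stands in the matrices, per the file headers. How reads were counted is not given in the sources used here. A barcode was kept if it had 300 or more genes and no more than 10% mitochondrial UMIs. Library totals ran from 2163166 to 16773096 UMIs. Scrublet (scanpy 1.11.5) called 25 kept barcodes (0.236%) doublets, too few to have worked, so doublets were not removed and the 5% of cells with the highest score were left out as an alternative. Barcodes shared between libraries numbered 0 to 17 a pair.

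Counts were summed per library and set, filtered with filterByExpr, normalised by TMM and tested with edgeR 4.0.16 (R 4.3.3), robust, with Benjamini-Hochberg adjustment over all genes and a threshold of 0.05. DESeq2 1.42.0 was an alternative. The code was tested on simulated data. CPM are unnormalised shares of summed counts. Of 21 genes looked up for upstream windows, 18 matched. Gene positions are from GENCODE on GRCm38.

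Genes were named by rule: the markers, the collagen VI chains, Ikbkb and Prrx1, then the 12 largest rises and 12 largest falls among calls whose mean log2 CPM was 5 or more, with 1 direction in all libraries, leaving out gene models and ribosomal, mitochondrial, haemoglobin, immunoglobulin and sex-linked genes, then up to 4 genes per list with the smallest p. Other list members called are named with their counts. The cells and lists were chosen with earlier results of these data known.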

Additional observations from a re-analysis of the deposited data

Results flagged for a closer look

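Col6a5 UMIs were also found outside the fibroblasts of Ikkb_cKO skin, in cells that entered no comparison of expression, at shares mostly above those of WT. Among Ptprc-positive cells the share was 2.44%, 1.32% and 0.253% in Ikkb_cKO libraries 1 to 3, against 0 of 476 and 0 of 527 in WT. Among cells without Ptprc and under 1% of UMIs from the 4 fibroblast genes it was 2.22%, 5.36% and 0.972%, against 0% and 0.370% in WT. Library 3 was lowest in both. In that second population 10 of the 12 cells of library 2 lay at 0.5 to 1% of UMIs from the 4 genes, next to the fibroblast threshold, as did 2 of 5 in library 1 and 2 of 7 in library 3. The 0.253% of library 3 is also below the 0.630% and 0.569% that the WT counts of 0 allow. What put Col6a5 UMIs in the remaining cells was not tested.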

How the results depend on the processing

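In Ikkb_cKO fibroblasts, 204 genes higher and 118 lower in Col6a5-positive cells became 110 and 71 with DESeq2, 424 and 365 without a low-count filter, 108 and 70 with cells thinned to 1000 UMIs (3022 genes tested), and 33 and 15 with libraries 1 and 2 summed. Thinning kept only cells of 1000 or more UMIs. Leaving out a library gave 68 to 473 higher and 33 to 432 lower, the highest without library 3. Without the replicate block they were 112 and 39. Stricter cell filters, a 2% fibroblast threshold, doublet removal, 2 or more Col6a5 UMIs and cells of 1500 to 5000 UMIs kept both counts within 1.5 times. Of 68 named calls, 0 reversed. Those that missed the threshold numbered 42 with libraries 1 and 2 summed, 32 without the block, 25 and 20 without library 2 or 1, and 15 with DESeq2. Ikbkb, which was not called, was -0.76 to 0.21 with a library left out and changed sign without library 1 (0.06) or 3 (0.21).

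In Col6a5-zero cells of Ikkb_cKO over WT, 1663 and 1834 became 950 and 1004 with DESeq2 and 763 and 787 thinned, with 42 to 1971 higher and 111 to 1789 lower when a library was left out. With the replicate number as a block they were 797 and 1070. Nothing in the labels says whether the numbers pair animals. The differences of libraries 1 and 2 in WT and Ikkb_cKO correlated at -0.000619 over 3951 genes. No shared difference was thus seen, which does not exclude a pairing.

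Among fibroblasts of 1000 or more UMIs thinned to 1000, the share with a Col6a5 UMI became 0.235% and 0.219% in WT and 18.0% in Ikkb_cKO library 3. With 2 or more UMIs it was 0% and 0.209% in WT and 50.7%, 50.5% and 15.5% in Ikkb_cKO. For cells of 500 or more genes and no more than 5% mitochondrial UMIs it was 71.1%, 67.7% and 26.0% in Ikkb_cKO. Depth limits these shares, since a shallow carrier can lack the UMI.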
